A study of Mus musculus with 7 samples.

Results

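The genes described here encode the collagens, the laminin chains and 4 further basement membrane proteins, nidogen 1 (Nid1), nidogen 2 (Nid2), perlecan (Hspg2) and agrin (Agrn). They were chosen by symbol, as Col or Lam followed by chain numbers, plus the 4 named genes. This gave 59 of the 32531 genes listed: 44 collagens, 11 laminin chains and the 4 others. The midbrains of adult control mice that had received no treatment were used. They carried the transgene of line Stard8-TRAP ES2342, an EGFP-tagged ribosomal protein Rpl10a expressed under Stard8, as the name of the line gives it. In translating ribosome affinity purification (TRAP), antibodies against EGFP pull tagged ribosomes and their RNA from a homogenate. The immunopurified RNA (IP) was sequenced in 3 libraries (replicates 1, 2 and 4) and the RNA left behind (unbound) in 4 libraries (replicates 1 to 4). All 7 libraries came from transgenic mice, and their sex and strain are not given. Nothing in the labels says whether replicates were separate animals or pools, so p-values measure the spread between these libraries.

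Basement membranes are thin sheets of matrix that wrap blood vessels and line the surface of the brain. Laminin trimers, each of an alpha, a beta and a gamma chain, and a network of type IV collagen form the sheet, and nidogens and perlecan bridge the networks. Brain endothelial cells, pericytes, smooth muscle cells, astrocytes and fibroblasts each contribute chains. Fibrillar collagens lie outside these sheets, in the connective tissue of larger vessels and meninges.

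Counts in genes ran from 52052340 to 76114634 per library. Stard8 checks the purification: it had 388, 440 and 227 CPM in IP 1, 2 and 4, against 3.51, 4.35, 4.18 and 4.89 CPM in unbound 1 to 4 (log2 fold change 6.38 ± 0.31, adjusted p = 6.67e-07). Levels are in CPM, scaled as described under processing, and 3 counts correspond to 0.0376 to 0.059 CPM. The submitters describe the tagged cells as neurons, yet 10 of 10 neuronal markers were lower in IP (6 of 10 without IP 2), with summed levels of 3558 to 7797 CPM in IP and 13460 to 20870 CPM in unbound. Endothelial markers were higher in IP in 12 of 12 (1413 to 1855 CPM in IP, 13.8 to 19.6 CPM in unbound). The same held for 12 of 12 pericyte and smooth muscle markers (3609 to 5206 CPM in IP, 26.7 to 43.8 CPM in unbound) and 12 of 12 microglia and macrophage markers (1420 to 1461 CPM in IP, 49.1 to 88.4 CPM in unbound). Of 10 fibroblast and meningeal markers 5 were higher and 1 was lower (323 to 469 CPM in IP, 151 to 199.5 CPM in unbound), and 3 and 2 without IP 4. Astrocyte markers were higher in 7 of 10 (2200.2 to 2921 CPM in IP, 1069 to 1756 CPM in unbound). On leaving out a library that count was 5 to 7, the lowest without IP 4. Oligodendrocyte markers were lower in 9 of 10 (1228 to 1902 CPM in IP, 5577 to 7705 CPM in unbound). Of 8 tested choroid plexus and ependymal markers 2 were higher (95.0 to 309 CPM in IP, 60.6 to 82.3 CPM in unbound), and 1 without IP 1, unbound 1 or unbound 4. Over all genes tested, 20.5% were higher in IP and 18.9% were lower. None of the 86 markers was at 0 in every library of a group. These lists differed between the same libraries as the matrix genes below, and their part in each result was not tested. In such bulk libraries fewer cells of a type and less RNA per cell cannot be told apart.

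Low counts kept 6 of the 59 genes out of the test: Col2a1, Col6a4, Col6a5, Col7a1, Col10a1 and Col17a1, none above a mean of 0.463 CPM in either group. Col17a1, a hemidesmosome collagen of epithelia, had 0 counts in every IP library and 35 counts in unbound. Of the 53 tested genes 21 were higher and 2 lower in IP (edgeR's quasi-likelihood test, Benjamini-Hochberg adjusted p under 0.05 over all 17654 genes tested). Together these are 43.4% of the tested genes, close to the 39.4% of all genes tested that passed in either direction. By direction, 39.6% were higher, against 20.5% of all genes tested, and 3.77% were lower, against 18.9%. The lower count was 1 without IP 1 and 1 without IP 2. Over all genes it fell as well, from 3328 to 1899 without IP 1 and to 1751 without IP 2. Within the libraries of index ACAGTG 15 were higher and 0 lower. The counts over all genes fell there too, from 3622 to 2190 higher and from 3328 to 1650 lower. The median log2 fold change, IP over unbound, was 1.51 for the 53 genes and -0.10 for all genes tested. Every IP library lay above every unbound library for 24 of them (45.3%, against 25.1% of all genes tested) and below for 3 (5.66%, against 22.6%). Of the 53, 4 passed the low-count filter through the IP libraries alone, among them 2 of the 21 higher genes (Col6a6 and Col28a1), and 5 through the unbound libraries alone. A gene that entered through the group where it is high had to differ, so its test adds no support. The same limit holds for the counts without overlap. The 24 above include Col4a4, Col6a6 and Col28a1, which entered through IP alone. The 3 below include Col22a1 and Col24a1, which entered through unbound alone.

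**Figure D1:**
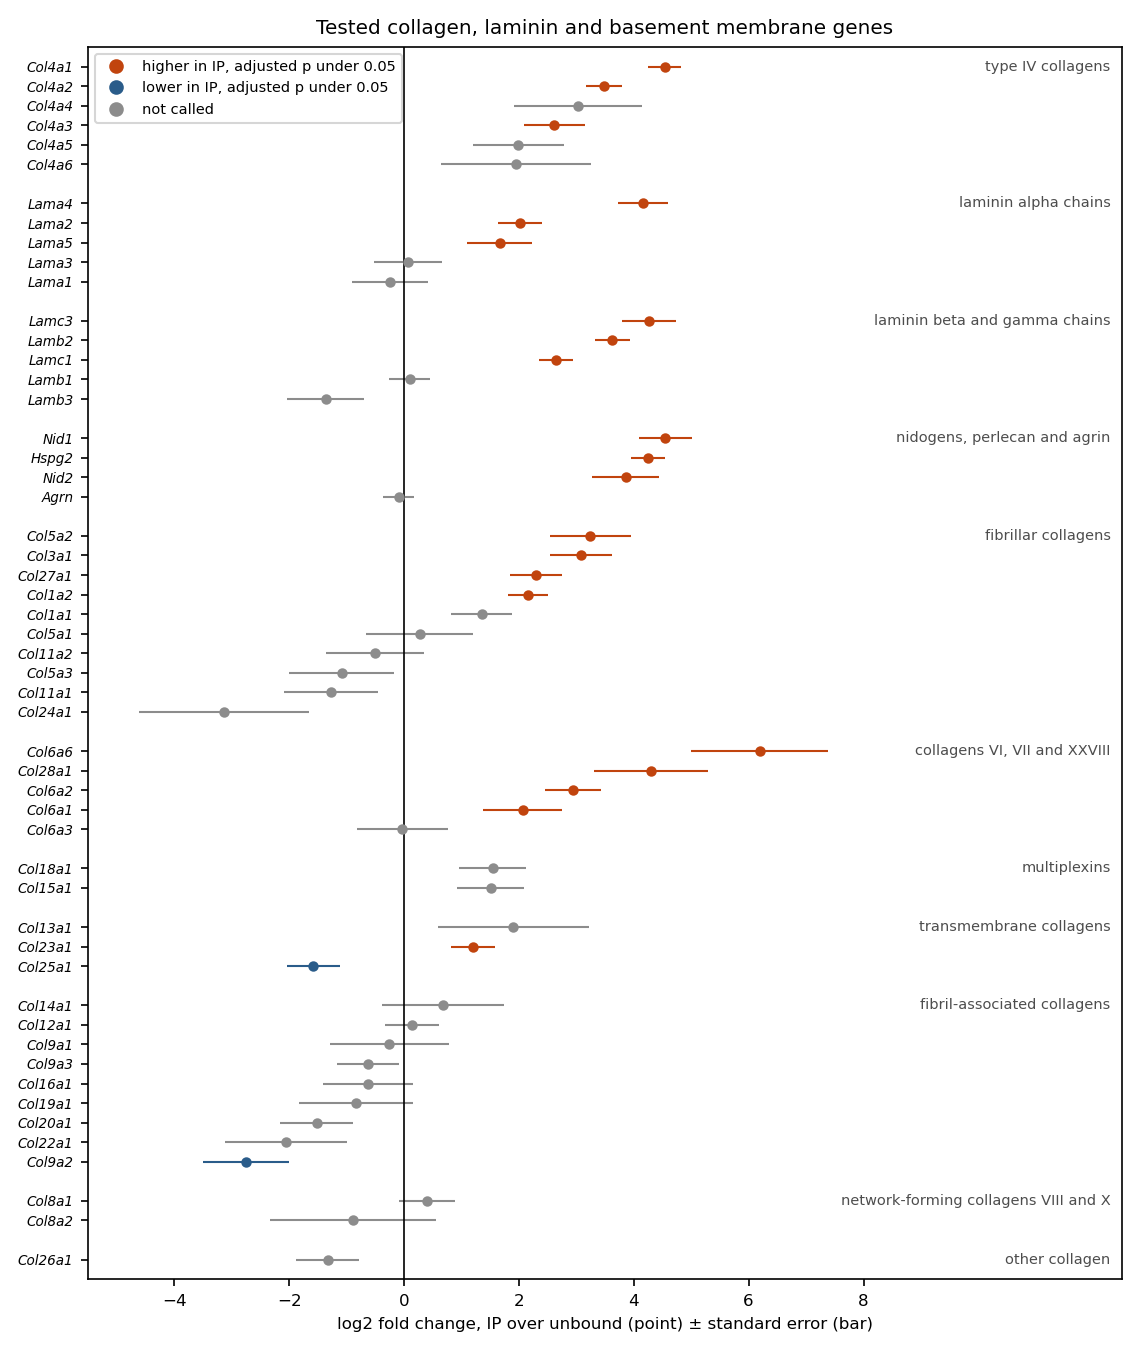
Log2 fold change of IP over unbound (horizontal axis) for 52 of the tested genes, grouped by class, with bars for the standard error; orange points were higher and blue points lower in IP at an adjusted p under 0.05, and grey points were not called. The 6 type IV collagen genes all lie right of 0, from 1.96 to 4.54, whereas the fibril-associated collagens lie between -2.76 and 0.68. Among these, Col4a4 and Col4a6 entered the test through the IP libraries alone and Col22a1 through the unbound libraries alone. The side on which these lie adds no support.

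Type IV collagen, the collagen of basement membranes, is built from 6 chains whose genes lie in head-to-head pairs. Of these, 3 were higher in IP, beside 20.5% of all genes tested, and 3 were not called. Col4a1, whose product pairs with that of Col4a2 in most basement membranes, had 34.4, 38.6 and 24.5 CPM in IP 1, 2 and 4, against 1.57, 1.31, 1.35 and 1.36 CPM in unbound 1 to 4. Its levels in unbound were nearly equal, and its groups lay far apart. The log2 fold change was 4.54 ± 0.28 (standard error, adjusted p = 1.63e-06), or 23.2-fold. Col4a2 had 33.3, 61.8 and 36.0 CPM in IP 1, 2 and 4, against 4.89, 3.09, 4.21 and 3.44 CPM in unbound 1 to 4. IP 2 was the highest library, and the groups again did not overlap. Col4a2 rose by 3.48 ± 0.31 on the log2 scale (adjusted p = 1.27e-05), or 11.2-fold. The annotated starts of this pair (chromosome 8, GRCm38) overlap by 22 bases, with Col4a1 on the minus strand from 11198423 to 11312826 and Col4a2 on the plus strand from 11312805 to 11449287.

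The pair was set against each other within libraries, as the log2 ratio of counts (0.5 added to each), which no scaling affects. The Col4a1/Col4a2 ratio averaged -0.40 ± 0.39 in IP and -1.46 ± 0.21 in unbound (SD, n = 3 and 4), a difference of 1.07 with no overlap. An exact 2-sided permutation test over all 35 arrangements of the library labels gave p = 0.0286, the smallest it can give, and an adjusted p = 0.0857 over the 12 pairs compared. It therefore did not pass, and 0 of the 12 pairs did, while 4 had an unadjusted p under 0.05. Even at the smallest p a pair cannot pass this adjustment on its own. Not passing is therefore no evidence that a ratio was equal in the groups.

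The other type IV chains, known from kidney, lung and inner ear and from smooth muscle, were scarce. Col4a3 averaged 3.33 ± 0.601 CPM in IP and 0.54 ± 0.18 CPM in unbound (SD, n = 3 and 4) and rose by 2.62 ± 0.54 on the log2 scale (adjusted p = 0.00325). Its head-to-head partner Col4a4, on chromosome 1, averaged 1.26 ± 0.243 CPM in IP and 0.155 ± 0.142 CPM in unbound. The log2 fold change of Col4a4 was 3.03 ± 1.12 (adjusted p = 0.052). Without unbound 1, which held 0 counts, it was 2.60 (adjusted p = 0.0259). Col4a4 entered the test through the IP libraries alone, where it is high, so neither value adds support. Col4a5, on the X chromosome, averaged 2.22 ± 0.521 CPM in IP and 0.558 ± 0.395 CPM in unbound, with a log2 fold change of 1.99 ± 0.80 (adjusted p = 0.0691). Without unbound 1 these were 1.61 and an adjusted p = 0.0416. Col4a6, its neighbour, averaged 1.21 ± 0.814 CPM in IP and 0.312 ± 0.397 CPM in unbound. The log2 fold change of Col4a6 was 1.96 ± 1.31 (adjusted p = 0.258). Like Col4a4, Col4a6 entered the test through the IP libraries alone, so its positive value adds no support. For Col4a4 and Col4a5 every IP library was above every unbound library, and for Col4a6 the groups overlapped. In the ratios Col4a4/Col4a3 and Col4a5/Col4a6 the groups overlapped too (exact permutation p = 0.543 and 0.6).

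**Figure D2:**
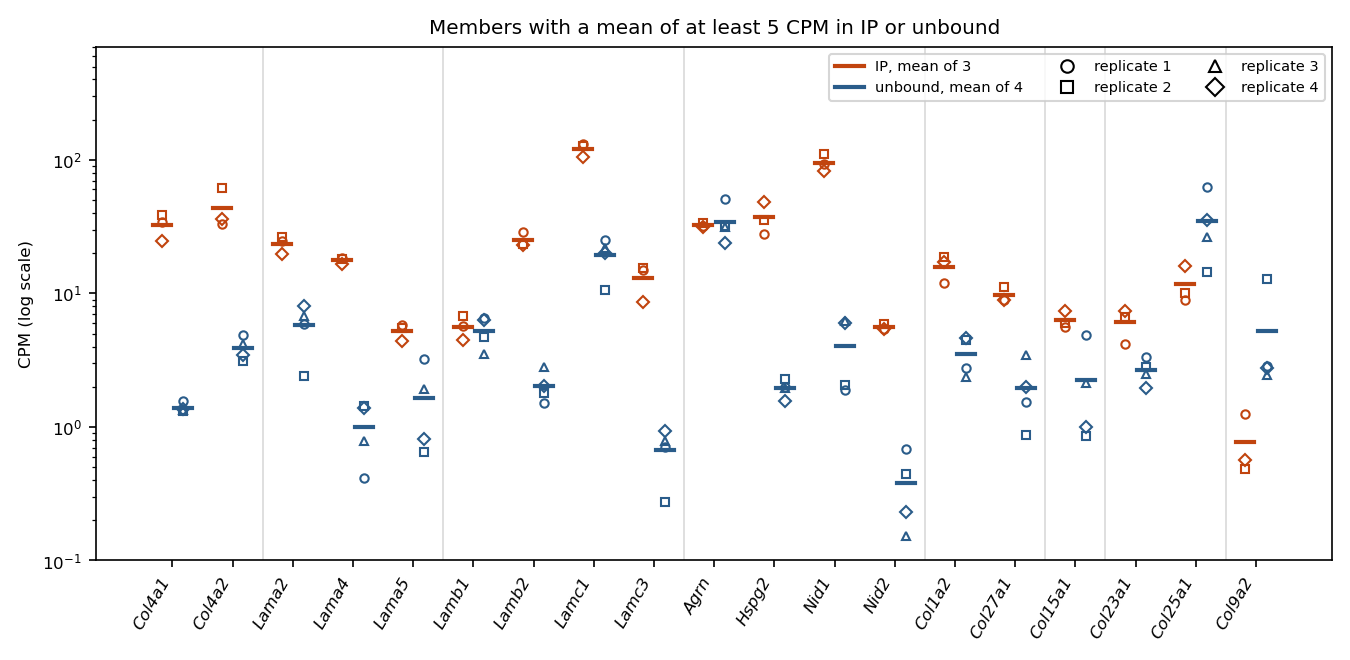
CPM on a log axis in each library for the 19 genes with a mean of at least 5 CPM in IP or unbound; orange symbols are IP, blue symbols unbound, the symbol shape gives the replicate number, and thick lines are group means. Lamc1 and Nid1 reach 131 and 110 CPM in IP, Agrn and Lamb1 overlap between the groups, and Col25a1 and Col9a2 have the higher mean in unbound.

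Laminins differ in their chains between tissues: vessel walls carry alpha 4 and alpha 5, the glial side of brain vessels alpha 1 and alpha 2. Of the 5 alpha chain genes 3 were higher in IP, beside 20.5% of all genes tested. Lama4, the endothelial and smooth muscle alpha chain, had 18.5, 18.2 and 16.7 CPM in IP 1, 2 and 4, against 0.414, 1.43, 0.778 and 1.38 CPM in unbound 1 to 4. The IP libraries were nearly equal and all above unbound, and Lama4 rose by 4.16 ± 0.44 on the log2 scale (adjusted p = 4.69e-05). Lama2, the alpha chain of muscle and of astrocyte basement membranes, had 24.5, 26.3 and 19.6 CPM in IP 1, 2 and 4, against 5.89, 2.41, 6.81 and 8.03 CPM in unbound 1 to 4. With unbound 2 the lowest library, the groups did not overlap, and Lama2 rose by 2.02 ± 0.38 (adjusted p = 0.00196).

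Lama5, the broadly used vessel alpha chain, had 5.83, 5.54 and 4.36 CPM in IP 1, 2 and 4, against 3.22, 0.653, 1.92 and 0.812 CPM in unbound 1 to 4. Every IP library was above unbound 1, the highest of the others. The log2 fold change was 1.66 ± 0.57 (adjusted p = 0.0395), and this call was lost on leaving out any library but unbound 1. The adjusted p was then 0.109, 0.106 and 0.0583 without IP 1, 2 and 4, and 0.0552, 0.068 and 0.0904 without unbound 2, 3 and 4. Lama1, the early embryonic and meningeal chain, averaged 2.17 ± 0.594 CPM in IP and 2.58 ± 1.80 CPM in unbound, with a log2 fold change of -0.25 ± 0.66 (adjusted p = 0.791). Lama3, an epithelial chain, averaged 2.32 ± 1.18 CPM in IP and 2.21 ± 1.18 CPM in unbound, with 0.07 ± 0.59 (adjusted p = 0.936). In both the groups overlapped. The log2 ratio Lama4/Lama5 averaged 1.77 ± 0.14 in IP and -0.59 ± 1.89 in unbound, where single libraries ran from -2.94 to 1.12. Lama2/Lama1 averaged 3.45 ± 0.58 in IP and 1.41 ± 1.29 in unbound. Neither difference passed (exact permutation p = 0.0857 for both, adjusted p = 0.171).

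The beta chains split. Lamb2, the beta chain of vessel and neuromuscular basement membranes, had 28.9, 23.4 and 23.0 CPM in IP 1, 2 and 4, against 1.52, 1.80, 2.79 and 2.01 CPM in unbound 1 to 4. Lamb2 rose by 3.63 ± 0.31 (adjusted p = 9.35e-06), and its groups did not overlap. Lamb1, the widespread beta chain, had 5.68, 6.73 and 4.44 CPM in IP 1, 2 and 4, against 6.52, 4.69, 3.51 and 6.30 CPM in unbound 1 to 4. Those libraries interleave, and the log2 fold change was 0.10 ± 0.36 (adjusted p = 0.856). The Lamb1/Lamb2 log2 ratio was -2.35, -1.79 and -2.37 in IP 1, 2 and 4, against 2.10, 1.37, 0.33 and 1.64 in unbound 1 to 4. Thus Lamb2 gave more counts in every IP library and Lamb1 in every unbound library, a difference of -3.53 (exact permutation p = 0.0286, adjusted p = 0.0857). Lamb3, an epithelial beta chain, averaged 1.11 ± 0.612 CPM in IP and 2.87 ± 1.82 CPM in unbound, with -1.36 ± 0.67 (adjusted p = 0.129).

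The sequences before the annotated starts of Lamb2 and Lamb1 are shown because these 2 chains take the same place in the trimer. Their log2 ratio also differed most between the groups among the laminin pairs compared. The sequences are from RefSeq (GRCm38.p6), which gave windows for 43 of the 59 genes. Each is the part of the 250 bases before the start that holds no exon in GENCODE M21. Lamb2 is chr9:108479612-108479735 and Lamb1 is chr12:31265043-31265233, both on the plus strand. Capitals mark the GC box GGGCGG and the CCAAT box, on either strand.
Lamb2: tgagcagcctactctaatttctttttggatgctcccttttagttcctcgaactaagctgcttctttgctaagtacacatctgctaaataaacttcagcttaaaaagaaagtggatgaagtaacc
Lamb1: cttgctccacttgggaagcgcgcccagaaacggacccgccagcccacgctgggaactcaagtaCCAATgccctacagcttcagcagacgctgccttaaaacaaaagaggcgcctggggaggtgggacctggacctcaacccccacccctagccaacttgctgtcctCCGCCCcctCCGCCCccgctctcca
Lamb1 holds 2 GC boxes and 1 CCAAT box, and the letters of both motifs are absent from the Lamb2 window. Among 32851 RefSeq windows of 250 bases, 32.7% hold GGGCGG and 33.9% hold CCAAT on either strand, as do 28 and 15 of the 48 windows of these genes, some of which have several. TATAAA is in 12.4% of all windows and 5 of the 48, and CCGGAA, a core of ETS factor sites, in 12% and 1 of the 48. A match describes the letters and is not a site.

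Gamma chains gave the highest levels. Lamc1, the gamma chain of most laminins, had 131, 128 and 106 CPM in IP 1, 2 and 4, against 25.3, 10.5, 21.8 and 20.0 CPM in unbound 1 to 4. Lamc1 rose by 2.65 ± 0.29 (adjusted p = 6.47e-05), with no overlap. It held 21.2% ± 2.35 of all counts of the 59 genes in IP and 10.9% ± 2.27 in unbound (SD, n = 3 and 4). Lamc3, a gamma chain known from retina and brain surface, had 14.9, 15.4 and 8.63 CPM in IP 1, 2 and 4, against 0.702, 0.275, 0.778 and 0.935 CPM in unbound 1 to 4. IP 4 was the lowest IP library, yet far above unbound, and Lamc3 rose by 4.27 ± 0.47 (adjusted p = 5.72e-05). The log2 ratio Lamc1/Lamc3 averaged 3.26 ± 0.30 in IP and 4.89 ± 0.38 in unbound, without overlap (difference -1.63, exact permutation p = 0.0286, adjusted p = 0.0857).

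Since a laminin trimer takes 1 chain of each kind, the chains were summed per kilobase of exon (CPM per kb, union of GENCODE M21 exons). Gamma chains came to 17.0 ± 2.12 CPM per kb in IP and 2.49 ± 0.792 in unbound (SD, n = 3 and 4). Beta chains came to 4.86 ± 0.55 CPM per kb in IP and 1.30 ± 0.225 in unbound, and alpha chains to 3.81 ± 0.403 in IP and 1.05 ± 0.314 in unbound. In IP the gamma sum was 4.45 times the alpha sum and 3.49 times the beta sum, and in unbound 2.36 and 1.92 times. With the longest coding transcript as length the IP ratios were 2.92 and 3.25. Within the beta chains Lamb2 made up 83.6% to 86.5% of the level in the IP libraries, and within the gamma chains Lamc1 made up 85.4% to 88.0%. Lama4 and Lama2 had near-equal levels in IP, 1.47 ± 0.0806 and 1.44 ± 0.213 CPM per kb.

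**Figure D3:**
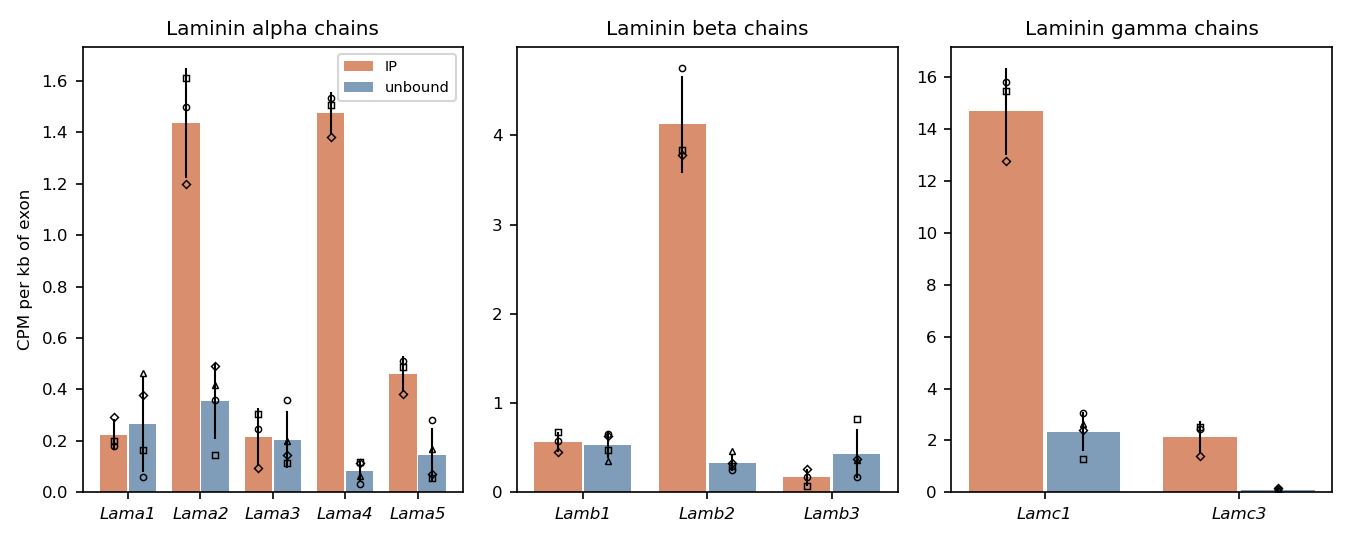
Level per kilobase of exon of laminin chains, in 3 panels for alpha, beta and gamma chains with different vertical scales; bars are means of 3 IP (orange) and 4 unbound (blue) libraries, error bars are SD, and symbols are single libraries. Lamb2, Lamc1, Lama2 and Lama4 stand out in IP, while Lamb1, Lama1 and Lama3 reach like levels in both groups.

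Nidogens are the short linkers between laminin and type IV collagen. Nid1 had 93.4, 110 and 82.3 CPM in IP 1, 2 and 4, against 1.90, 2.06, 6.26 and 6.05 CPM in unbound 1 to 4. Unbound 3 and 4 were higher than unbound 1 and 2, and all were far below IP. Nid1 (chromosome 13, 13437551 to 13512269) rose by 4.55 ± 0.46 on the log2 scale (adjusted p = 3.24e-05), or 23.5-fold. Its share of the counts of the 59 genes was 16.6% ± 1.37 in IP and 2.40% ± 1.44 in unbound. Nid2 had 5.43, 5.89 and 5.44 CPM in IP 1, 2 and 4, against 0.689, 0.447, 0.152 and 0.229 CPM in unbound 1 to 4. It rose by 3.86 ± 0.59 (adjusted p = 0.000531), and its groups did not overlap. The Nid1/Nid2 log2 ratio averaged 4.08 ± 0.15 in IP and 3.4 ± 1.86 in unbound, and the groups overlapped (exact permutation p = 0.514).

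Perlecan and agrin are the large heparan sulfate proteoglycans of basement membranes, and agrin is also made by neurons, where it organises synapses. Hspg2 had 27.7, 35.4 and 48.6 CPM in IP 1, 2 and 4, against 2.0, 2.27, 1.97 and 1.55 CPM in unbound 1 to 4. All IP libraries were far above unbound, and Hspg2 rose by 4.25 ± 0.30 (adjusted p = 3.10e-06), or 19.1-fold. Agrn had 32.1, 33.5 and 31.2 CPM in IP 1, 2 and 4, against 50.8, 32.0, 31.3 and 23.7 CPM in unbound 1 to 4. The IP libraries lay within the range of unbound, with a log2 fold change of -0.09 ± 0.27 (adjusted p = 0.812). Agrn thus made up 5.66% ± 0.242 of the counts of the 59 genes in IP and 19.5% ± 4.23 in unbound. The Hspg2/Agrn log2 ratio was -0.21, 0.08 and 0.64 in IP 1, 2 and 4, against -4.66, -3.81, -3.98 and -3.92 in unbound 1 to 4. The ratio lay near 0 in IP 1 and 2 and above 0 in IP 4, whereas Agrn had the higher count in every unbound library. The difference of 4.26 was the largest of the 12 pairs in these libraries (exact permutation p = 0.0286, adjusted p = 0.0857).

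The bases before the starts of this pair are shown because its log2 ratio differed most between the groups among the 12 pairs compared. Hspg2 is chr4:137468553-137468768 on the plus strand, and Agrn, 1 of 2 RefSeq windows, is chr4:156197489-156197738 on the minus strand. Capitals mark GGGCGG or its reverse complement CCGCCC.
Hspg2: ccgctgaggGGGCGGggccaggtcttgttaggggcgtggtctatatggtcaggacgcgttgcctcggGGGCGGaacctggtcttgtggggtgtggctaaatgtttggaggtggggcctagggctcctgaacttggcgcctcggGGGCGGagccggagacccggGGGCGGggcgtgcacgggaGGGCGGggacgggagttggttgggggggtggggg
Agrn: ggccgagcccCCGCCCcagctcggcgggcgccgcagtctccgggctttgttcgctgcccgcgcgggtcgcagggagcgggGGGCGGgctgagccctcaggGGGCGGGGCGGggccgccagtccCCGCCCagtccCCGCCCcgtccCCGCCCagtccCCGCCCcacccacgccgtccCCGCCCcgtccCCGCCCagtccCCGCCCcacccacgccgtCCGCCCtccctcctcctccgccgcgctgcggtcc
The Hspg2 window holds 5 GC boxes and the Agrn window 12, counting copies that overlap. The GC content of the 250 bases was 70.0% for Hspg2 and 83.6% for this Agrn window. The other Agrn window, chr4:156186260-156186509, holds 2 GC boxes at a GC content of 60.8%, both below the values of Hspg2.

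**Figure D4:**
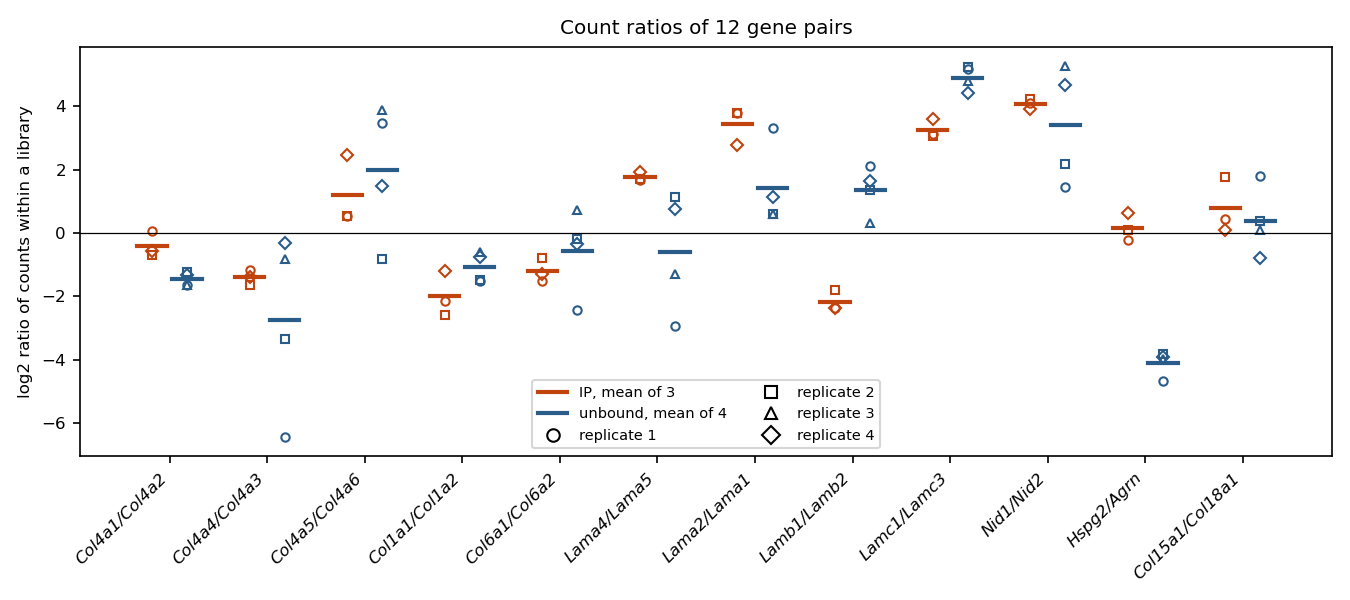
Log2 ratio of the counts of 2 genes within each library (vertical axis) for the 12 pairs compared; orange symbols are IP, blue symbols unbound, and thick lines are group means. The groups are apart for Col4a1/Col4a2, Lama4/Lama5, Lamb1/Lamb2, Lamc1/Lamc3 and Hspg2/Agrn. None of the 12 pairs had an adjusted p under 0.05, which a pair cannot reach on its own in this test.

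Fibrillar collagens are the rope-forming collagens of connective tissue. Of 10 tested, 4 were higher, beside 20.5% of all genes tested, and 6 were not called, with a median log2 fold change of 0.81. Col1a2, a chain of type I collagen, had 11.9, 18.6 and 17.1 CPM in IP 1, 2 and 4, against 2.74, 4.45, 2.35 and 4.64 CPM in unbound 1 to 4. It rose by 2.16 ± 0.35 (adjusted p = 0.000751) without overlap. Col1a1, the partner chain, averaged 4.38 ± 2.63 CPM in IP and 1.72 ± 0.748 CPM in unbound, with 1.35 ± 0.54 (adjusted p = 0.0678) and overlapping groups. The Col1a1/Col1a2 log2 ratio averaged -1.98 ± 0.71 in IP, against -1.08 ± 0.47 in unbound libraries, which did not pass (exact permutation p = 0.171).

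Col27a1, a cartilage-type fibrillar collagen, had 8.99, 11.1 and 8.92 CPM in IP 1, 2 and 4, against 1.53, 0.876, 3.47 and 1.99 CPM in unbound 1 to 4. It rose by 2.30 ± 0.46 (adjusted p = 0.00279), and its groups did not overlap. Col3a1, the type III collagen of vessel walls, and Col5a2, which nucleates fibrils, were also higher, by 3.09 ± 0.54 and 3.24 ± 0.71 (adjusted p = 0.00128 and 0.00455), from IP means of 4.03 and 2.43 CPM. Col24a1, which entered the test through the unbound libraries alone, had 15 counts in IP, all in IP 2, and 185 in unbound, with -3.13 ± 1.47 (adjusted p = 0.115). Without IP 2 the IP libraries held 0 counts, and the fitted value of -8.59 (adjusted p = 0.0154) is then no measure of size.

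Collagen VI forms beaded microfilaments near basement membranes, each made of the Col6a1 and Col6a2 chains and a longer one. Col6a2 averaged 4.80 ± 1.53 CPM in IP and 0.621 ± 0.136 CPM in unbound and rose by 2.94 ± 0.49 (adjusted p = 0.000895). Col6a1 averaged 2.03 ± 0.39 CPM in IP and 0.485 ± 0.262 CPM in unbound, with 2.06 ± 0.69 (adjusted p = 0.035). Without IP 1, 2 or 4 its adjusted p was 0.081, 0.0814 and 0.093, and without unbound 4 it was 0.0761. The Col6a1/Col6a2 log2 ratio averaged -1.20 ± 0.37 in IP, against -0.56 ± 1.34 in unbound libraries, and did not pass (exact permutation p = 0.486). Of the long chains, Col6a3 had -0.03 ± 0.79 (adjusted p = 0.983), from means of 1.64 CPM in IP and 1.68 CPM in unbound. Col6a6 had 145, 123 and 243 counts in IP 1, 2 and 4, against 0, 1, 0 and 8 counts in unbound 1 to 4. It entered the test through the IP libraries alone, and its fitted log2 fold change of 6.19 ± 1.19 (adjusted p = 0.00229) rests on those few unbound counts. Without unbound 4 the fitted value was 8.64 (adjusted p = 0.000649). Col28a1, a related collagen known from peripheral glia, averaged 3.99 ± 2.14 CPM in IP and 0.203 ± 0.147 CPM in unbound, with 4.30 ± 0.99 (adjusted p = 0.00614). It too entered through the IP libraries alone, and unbound 1 held 0 counts.

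The multiplexins Col15a1 and Col18a1 sit in vessel basement membranes, and Col18a1 is the source of endostatin. Col15a1 had 5.63, 6.05 and 7.41 CPM in IP 1, 2 and 4, against 4.90, 0.859, 2.14 and 1.01 CPM in unbound 1 to 4. All IP libraries were above unbound 1, the highest unbound library. The log2 fold change was 1.51 ± 0.58 (adjusted p = 0.0619). On leaving out unbound 1, Col15a1 passed with 2.25 (adjusted p = 0.00429). Col18a1 averaged 4.25 ± 2.56 CPM in IP and 1.46 ± 0.592 CPM in unbound, with 1.54 ± 0.58 (adjusted p = 0.0549) and overlapping groups. On leaving out IP 2, Col18a1 passed with 1.93 (adjusted p = 0.0367). Their log2 ratio did not pass (exact permutation p = 0.514).

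Transmembrane collagens went both ways. Col23a1 had 4.20, 6.71 and 7.43 CPM in IP 1, 2 and 4, against 3.33, 2.82, 2.51 and 1.96 CPM in unbound 1 to 4. The groups were narrowly apart, with a log2 fold change of 1.20 ± 0.39 (adjusted p = 0.0298). Without IP 2 or 4 the adjusted p was 0.11 and 0.0988, and without unbound 3 or 4 it was 0.071 and 0.0745. Col25a1, a collagen made by neurons and found in amyloid plaques, had 8.87, 10.1 and 16.2 CPM in IP 1, 2 and 4, against 63.1, 14.5, 26.3 and 35.7 CPM in unbound 1 to 4. IP 4 was above unbound 2, so the groups overlapped. Col25a1 fell by 1.58 on the log2 scale (standard error 0.46, adjusted p = 0.0188), with an adjusted p of 0.0788 without IP 1 and 0.0797 without IP 2. It made up 2.07% ± 0.775 of the counts of the 59 genes in IP and 18.9% ± 7.86 in unbound. Neuronal markers fell in the same direction, and their part here was not tested.

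Fibril-associated collagens decorate fibrils in cartilage, tendon and cornea. They gave 0 higher and 1 lower of 9 with edgeR, beside 20.5% and 18.9% of all genes tested. With DESeq2, and at an unadjusted p under 0.05, the higher count was 0 as well. In the other direction Col20a1 joined in both settings. It had -1.52 with DESeq2 (adjusted p = 0.0331) and an unadjusted p = 0.0368 with edgeR. Whether counts from so few genes differ from those shares was not tested. Col9a2, a chain of collagen IX, had 1.25, 0.488 and 0.57 CPM in IP 1, 2 and 4, against 2.86, 12.9, 2.43 and 2.75 CPM in unbound 1 to 4. Unbound 2 was far above the other unbound libraries, and all IP libraries lay below unbound. Col9a2 fell by 2.76 on the log2 scale (standard error 0.74, adjusted p = 0.0138). Without IP 2 the adjusted p was 0.0638, and without unbound 2 the log2 fold change was -1.79 (adjusted p = 0.0341). Its partners did not pass, Col9a1 with -0.25 ± 1.03 and Col9a3 with -0.63 ± 0.54, and Col9a3 shares 234 exonic bases with the opposite-strand gene Tcfl5. The remaining 6 ranged from -2.05 for Col22a1 to 0.68 for Col14a1, and none of them passed in the main edgeR test. Col22a1 entered the test through the unbound libraries alone, where it is high. Leaving out IP 4 moved Col19a1 to -3.07 (adjusted p = 0.0364) from -0.84 with all libraries. Leaving out unbound 2 moved Col20a1 to -1.83 (adjusted p = 0.0183) from -1.52. The vessel and cornea collagens Col8a1 and Col8a2 had 0.41 ± 0.49 and -0.89 ± 1.45, and Col26a1 had -1.33 ± 0.55 (adjusted p = 0.0778).

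By level per kilobase of exon the order in IP was Lamc1 (14.7 CPM per kb), Nid1 (13.7), Col4a2 (6.60), Col4a1 (4.35), Lamb2 (4.13), Agrn (3.48) and Hspg2 (2.60). The gap between Lamc1 and Nid1 was smaller than their SD of 1.66 and 2.02 CPM per kb. The same held for Col4a1 and Lamb2, with 0.97 and 0.544. In unbound the order was Agrn (3.71 CPM per kb), Col25a1 (2.70) and Lamc1 (2.35), and Col4a1 stood at 0.187. The SD of Agrn and Col25a1 in unbound, 1.24 and 1.60 CPM per kb, exceeded the gap between them. Such an SD is the spread of 1 gene between libraries. It does not measure the spread of a difference within libraries, which was not tested for these genes. With the longest coding transcript as length Col25a1 (5.21) came before Agrn (4.74) in unbound, and in IP Hspg2 moved to rank 9, behind Col1a2 and Lama4. All 59 genes took 0.0598% ± 0.00749 of gene counts in IP and 0.0172% ± 0.00461 in unbound (SD, n = 3 and 4). Laminin chains took 0.0229% ± 0.00367 in IP and 0.0043% ± 0.00115 in unbound, and collagens 0.0191% ± 0.00322 in IP and 0.0089% ± 0.00249 in unbound. Type IV collagens made up 14.6% ± 2.84 of the counts of the 59 genes in IP and 4.01% ± 0.629 in unbound.

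Enzymes and chaperones that fold, hydroxylate and cross-link collagen were measured as well, with 11 of 33 higher and 4 lower, beside 20.5% and 18.9% of all genes tested, and a median log2 fold change of 0.39. The higher count was 7 without IP 2, and the lower count was 1 without IP 1 or IP 2. The counts over all genes fell in these fits too. They went from 3622 to 2796 higher without IP 2, and from 3328 to 1899 and 1751 lower without IP 1 and IP 2. Serpinh1, the collagen chaperone HSP47, averaged 30.0 ± 8.19 CPM in IP and 2.0 ± 1.05 CPM in unbound and rose by 3.90 ± 0.42 (adjusted p = 5.50e-05). Sparc, a collagen-binding secreted protein that astrocytes, microglia and vessels make, was the most abundant by CPM over all libraries, at 1375 ± 312 CPM in IP and 381 ± 109 CPM in unbound, and rose by 1.85 ± 0.30 (adjusted p = 0.000772). Pcolce2, an enhancer of procollagen cleavage, fell by 1.47 (adjusted p = 0.00698), to 3.52 ± 0.343 CPM in IP against 9.76 ± 3.01 CPM in unbound.

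Of 18 tested receptors for collagen and laminin 9 were higher and 2 lower, beside 20.5% and 18.9% of all genes tested, with a median of 1.5. The lower count was 1 without IP 1, IP 2 or unbound 3. Over all genes it fell too, from 3328 to 1899, 1751 and 2634. Bcam, a laminin alpha 5 receptor, averaged 138 ± 7.18 CPM in IP and 6.40 ± 2.87 CPM in unbound and rose by 4.43 ± 0.36 (adjusted p = 7.80e-06). Dystroglycan, Dag1, which binds laminin, perlecan and agrin, averaged 116 ± 13.1 CPM in IP and 60.3 ± 7.36 CPM in unbound and rose by 0.95 ± 0.21 (adjusted p = 0.00467). Its mean CPM over all libraries was the highest of the receptors, though Bcam was above it in IP. The collagen receptor kinase Ddr1, which oligodendrocytes carry, fell by 1.52 (adjusted p = 0.00264), to 12.1 ± 4.78 CPM in IP against 34.9 ± 5.54 CPM in unbound.

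Other basement membrane genes were higher in 9 and lower in 2 of 18 tested, beside 20.5% and 18.9% of all genes tested, with a median of 1.33. The lower count was 1 without IP 1 and 0 without IP 2. Over all genes it fell too, from 3328 to 1899 and 1751. Tinagl1, a matrix protein of vessels, averaged 36.0 ± 4.69 CPM in IP and 0.465 ± 0.111 CPM in unbound and rose by 6.26 ± 0.32 (adjusted p = 7.02e-07). Egfl7, secreted by endothelial cells, was the most abundant by CPM over all libraries, at 94.0 ± 35.3 CPM in IP and 6.56 ± 3.97 CPM in unbound, and rose by 3.84 ± 0.47 (adjusted p = 0.000131). The calcium-binding Smoc1 fell by 1.22 (adjusted p = 0.0146, and 0.0776 without IP 2), to 3.71 ± 1.03 CPM in IP against 8.67 ± 0.99 CPM in unbound.

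Interstitial and elastic matrix genes were higher in 10 and lower in 1 of 20, beside 20.5% and 18.9% of all genes tested, with a median of 1.58. Vtn, vitronectin, which brain pericytes make, had both the smallest p and the highest level, at 509 ± 59.0 CPM in IP and 5.80 ± 1.60 CPM in unbound, and rose by 6.46 ± 0.31 (adjusted p = 5.78e-07). Vcan, the proteoglycan versican of perineuronal and oligodendrocyte precursor matrix, fell by 1.93 (adjusted p = 0.00226), to 4.64 ± 0.471 CPM in IP against 17.6 ± 6.30 CPM in unbound.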

How the data were processed

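Midbrain RNA sequenced in 7 libraries, 3 IP and 4 unbound, entered the comparison. Same-numbered IP and unbound libraries may be fractions of the same homogenate, which the labels do not state. The main test and the permutation test treated all 7 as independent. The deposited files hold whole-number read counts per gene symbol. Per the submitters' processing notes, the tools were STAR (2.0.0e) and HTSeq and the build was mm10. Neither the annotation nor the strand setting is stated there, so reads from overlapping genes may be missing or fall on another gene. The 6 entries that name no gene were left out. Of all entries, ambiguous reads were 1.55% in IP and 9.95% in unbound, reads outside genes 16.6% in IP and 12.2% in unbound, and reads with several alignments 36.5% in IP and 24.5% in unbound.

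Counts were filtered with filterByExpr of edgeR 4.0.16 (R 4.3.3), leaving 17654 genes, and scaled with TMM factors. The 2-sided quasi-likelihood test, robust version, compared IP with unbound, and p-values were adjusted by Benjamini-Hochberg over those genes. Standard errors are the log2 fold change over the root of its F statistic. CPM are counts divided by the TMM-scaled library size, times 1e6. Coordinates and lengths came from GENCODE M21 (GRCm38, the same build as mm10). Floors cover counting error alone, as reads carried no molecular identifiers. Libraries of a group differed by more than sampling noise (chi-square per degree of freedom 77.7 to 1206).

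Values per library are given for genes with a mean of at least 5 CPM in a group, and group values for other type IV collagen, laminin and paired genes. The values of 1 gene are not reported here. Of each pathway list the gene with the smallest p, the most abundant and the leading gene against the majority are named. Other named genes (Col3a1, Col5a2, Col6a3, Col6a6, Col8a1, Col8a2, Col9a1, Col9a3, Col14a1, Col17a1, Col19a1, Col20a1, Col22a1, Col24a1, Col26a1 and Col28a1) were chosen after their values were seen. The members, lists and pairs were chosen with earlier results of these data known. Alternatives were RLE scaling, no scaling factor, other low-count filters, DESeq2 1.42.0, limma voom (limma 3.58.1) and glmTreat. Others were a block for the replicate number, the index read as covariate, each index alone, and single libraries left out. No sequencing lane number was shared by IP and unbound libraries. Lane and group therefore cannot be told apart, and no alternative covers the lane.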

Additional observations from a re-analysis of the deposited data

Results flagged for a closer look

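Among 31 genes, each checked in the 4 unbound libraries, 1 value lay far from the rest: Col9a2 at 12.9 CPM in unbound 2, against 2.43 to 2.86 CPM in the other 3 unbound libraries. The gap to the nearest library exceeded Dixon's 95% critical value, which chance exceeds in about 1 of 20 groups. Without both IP 4 and unbound 2 the log2 fold change of Col9a2 was -1.61 (adjusted p = 0.0769).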

How the results depend on the processing

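Under 19 alternatives the 53 tested genes stayed on their side of the threshold in 901 values, lost a call in 34 and gained one in 32. No called value changed sign, and 43 uncalled values did. Of the 21 higher genes, 18 stayed higher on leaving out any single library and 12 under every alternative. Of the 2 lower genes, 0 did either. A gene that an alternative did not test was not counted among the 12. Col3a1, Col6a6 and Col28a1 were left out in this way, as they lost no call in a fit that tested them. Of these, Col6a6 and Col28a1 entered the main test through the IP libraries alone. The higher count was 21 and lay between 18 and 24 on leaving out a library. It was 12 with a filter of 5 CPM in 3 libraries, which tests fewer genes. The lower count was 2, and 1 to 3 on leaving out a library. It was 4 with DESeq2, 1 with the 5 CPM filter, 0 within index ACAGTG (2 IP and 2 unbound, 15 higher) and 4 without both IP 4 and unbound 2; the cause was not tested. Index GTGAAA holds 1 IP and 2 unbound libraries. Its single IP library is taken to vary as the unbound ones do, so calls from that fit are not counted here. Over all genes 3622 were higher and 3328 lower, 2190 and 1650 within index ACAGTG, and 2796 to 4050 and 1751 to 3632 on leaving out a library. With 7 libraries no pair ratio passed after adjustment, and 0 did with a pseudocount of 2. At the smallest p of 35 arrangements a pair cannot pass on its own, so neither result decides about a single pair. Library-size scaling moved the median of all genes by 0.10 on the log2 scale.

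The labels do not say whether same-numbered IP and unbound libraries came from the same homogenate. Deviations of same-numbered libraries from their group means correlated at -0.03, 0.04 and 0.16 (replicates 1, 2 and 4). So few pairs cannot decide whether they did. With the replicate number as a block, and unbound 3 left out, 20 of the genes were higher and 2 lower.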
